A study of Homo sapiens with 6 samples.

Results

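The genes described here carry signals of the transforming growth factor beta (TGF-beta) superfamily, which comprises the TGF-beta, activin and bone morphogenetic protein (BMP) branches. The 50 genes were taken from a list and matched by symbol to the annotation of the array, and 49 of them were tested among 18244 genes. The type I BMP receptor gene BMPR1A was not analysed here. A probe set is a group of short array probes summarised as 1 value, and for each gene the one with the highest mean over the 6 arrays was taken. The samples were A549 cells (an established line of human lung adenocarcinoma) that had received a lentivirus with a short hairpin RNA. In 1 group of 3 arrays the hairpin targeted TIGD1, which descends from a transposase of the pogo family, and in the other group of 3 it was a negative control. Each group rests on 1 hairpin sequence and 1 cell line. The hairpins are shown because they define the groups, and both are written 5′ to 3′ in lower case with no part set off in capitals:
shTIGD1: ctgctaacacaacatccat
shNC, the negative control: ttctccgaacgtgtcacgt

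In this pathway, secreted ligand dimers bring together type II and type I receptor kinases on the cell surface. The activated receptors phosphorylate SMAD proteins, SMAD2 and SMAD3 in the TGF-beta and activin branch and SMAD1, SMAD5 and SMAD9 in the BMP branch, which enter the nucleus with SMAD4. Latent TGF-beta binding proteins hold TGF-beta in the matrix, secreted antagonists such as follistatin and gremlin capture activins or BMPs, and SMAD6, SMAD7 and the SMURF ligases dampen the signal inside the cell. In lung epithelium the pathway is known for restraint of growth and for its part in the epithelial to mesenchymal transition.

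The deposited values were log2 signals, and the array medians lay between 6.27 and 6.28. TIGD1 itself did not pass the test. It read 6.91 ± 0.06 on the arrays labelled shControl and 6.86 ± 0.02 on the arrays labelled shTIGD1 (SD, n = 3 each), so that the groups are named below by their labels and every direction is that of the labels. A probe set of CDKN2A, a gene that A549 cells are known to have lost by deletion, read 3.93 and 7.35 in the same order. The brightest of its 3 probe sets read 5.66 and 6.22. Of its neighbours, which A549 cells are also known to lack, MTAP read 8.29 and 8.14 and passed as lower (limma adjusted p = 0.0479). None (0) of the 6 MTAP probe sets passed when tested on its own. CDKN2B, near background, differed by -0.12 and did not pass, but 1 of its 3 probe sets passed as higher, and the highest stood at 0.42. Epithelial keratins were high on all arrays (KRT8 between 13.51 and 13.53), while the adhesion genes EPCAM and CDH1 were higher in the arrays labelled shTIGD1, by 0.87 and 0.66. The summed signal of 9 immune markers lay between 9.18 and 9.32 in one group and between 9.17 and 9.28 in the other, with 6 of the 9 under 5, where signals are near background, and ITGAM alone past the test (-0.19). For 7 endothelial markers the ranges were 7.61 to 7.68 and 7.60 to 7.70, with 3 under 5 and ESAM past the test (0.33). For 8 fibroblast markers they were 7.75 to 7.84 and 7.59 to 7.64, with 5 under 5, COL1A2, LUM and DCN among them, and COL3A1 past the test (-0.56). The part of these differences in the results below was not tested. No label says whether the arrays of a group came from separate cultures, so the p-values reflect only the spread among these 6 samples, and that spread may be technical.

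Of the 49 genes, 11 rose and 8 fell in the arrays labelled shTIGD1, at a limma p of 0.05 adjusted over all 18244 genes. Among all genes 23.8% passed, 9.81% as higher and 14% as lower. The share of the 49 genes that passed was 38.8%. The list was chosen with earlier results of these data known, so its shares describe it and test nothing. Calls are more frequent among brighter genes. When the fit was limited to genes whose higher group mean was at least 5, 24 of 46 members passed (13 higher, 11 lower), or 52.2%, against 40.4% of such genes (16.8% higher and 23.6% lower). The median log2 difference of the 49 genes was 0.02, and that of all genes -0.04. The median size of the difference, without its sign, was 0.14 for the 49 genes and 0.10 for all genes. None of the 49 (0) both passed and reached a change of 1.5-fold, which 1.11% of all genes did. The groups were fully apart for 30 of the 49 genes, 19 of them higher and 11 lower, while this held for 42.3% of all genes. TGFB3, BMP7 and SMAD9 had means under 5 in both groups and did not pass. In a bulk sample, less transcript per cell and fewer cells that carry it cannot be told apart.

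The direction of small falls depended on the scaling of the arrays. The bacterial and phage transcripts that are added in fixed amounts before hybridization read lower by 0.18 on the log2 scale in the arrays labelled shTIGD1, and the poly-A transcripts added to the RNA by 0.32. The former did not move alike: the 7 probe sets of bioB, bioC and bioD differed by -0.22 and the 2 of the phage transcript cre by -0.04. When arrays were levelled on the former, the median of all genes moved from -0.04 to 0.14 and that of the 49 genes to 0.20. Then 29 members passed as higher and 4 as lower (BMP4, SMAD3, LTBP3 and FSTL3), where 40.8% and 2.86% of all genes did. With the poly-A controls the medians were 0.29 and 0.34, with 35 members higher and 0 lower, where 68.2% and 0.532% of all genes passed. Either scaling adds the same positive amount to every gene, so that falls shrink and rises grow whichever genes they are. All 11 rises passed under both scalings and no fall passed as lower with the poly-A controls, which says nothing of single genes. Values below are as deposited.

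**Figure D1:**
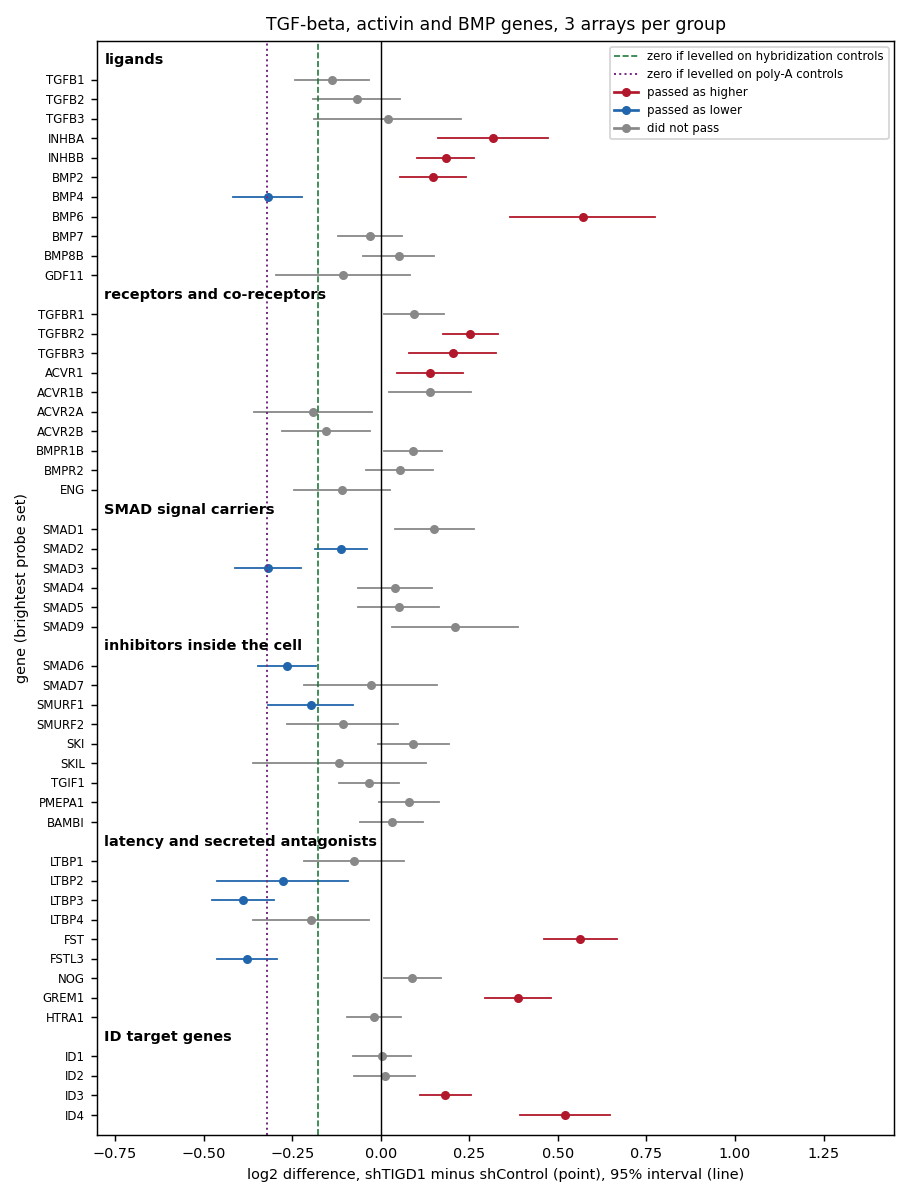
Log2 difference (x axis, shTIGD1 minus shControl) of the 49 genes, grouped by role, as points with 95% intervals from limma (lines) over 3 arrays per group. Red genes rose, blue genes fell and grey genes did not pass; BMP6, FST and ID4 lie farthest to the right, LTBP3 and FSTL3 farthest to the left, and the dashed and dotted lines mark where 0 would lie with each set of control transcripts.

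Among the ligands, the activin subunits INHBA and INHBB and the BMP genes BMP2 and BMP6 rose, while BMP4 fell and the 3 TGF-beta genes did not pass. BMP6, a ligand known for its control of iron through hepcidin, read 6.87, 7.05 and 6.71 on the arrays labelled shControl and 7.47, 7.42 and 7.45 on those labelled shTIGD1. The controls were spread more widely than the other group, and the lowest shTIGD1 array lay above the highest control. The difference was 0.57 on the log2 scale, or 1.48-fold (SE 0.09, limma adjusted p = 0.00569), and a dimmer BMP6 probe set also passed (0.68). BMP4, a ligand of lung and foregut development, read 10.26, 10.32 and 10.23 against 9.94, 9.91 and 9.99. All 3 arrays labelled shTIGD1 were below the controls, and BMP4 fell by 0.32 (SE 0.04, adjusted p = 0.00345, limma), a fall that became 0.00 with the poly-A controls. As deposited, BMP6 and BMP4 moved in opposite directions.

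INHBA encodes the subunit of activin A. Its signal was 5.39, 5.51 and 5.39 in the arrays labelled shControl and 5.72, 5.66 and 5.87 in those labelled shTIGD1, a difference of 0.32 (SE 0.06, limma adjusted p = 0.0165). These signals lie little above background, and the other INHBA probe set, at 3.88 and 3.89, did not pass. The INHBA call ended without shControl replicate 1 or 3 (adjusted p up to 0.0556). INHBB, the subunit of activin B, rose from 10.72, 10.78 and 10.75 to 10.95, 10.92 and 10.94, with narrow spread in both groups (0.18, SE 0.03, limma adjusted p = 0.0113). BMP2, an inducer of bone and cartilage, read 7.54, 7.48 and 7.48 against 7.68, 7.60 and 7.66. Its difference of 0.15 passed (SE 0.04, limma adjusted p = 0.0386), and its other probe set rose by 0.29, but the call for the brighter one held in only 1 of the 6 fits that left out an array (without shTIGD1 replicate 2; adjusted p up to 0.121 in the others).

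TGFB1, the ligand after which the pathway is named, read 8.83, 8.89 and 8.81 in the arrays labelled shControl and 8.77, 8.67 and 8.68 in those labelled shTIGD1. The groups did not overlap, yet the difference of -0.14 (95% interval -0.24 to -0.03) did not pass (limma adjusted p = 0.0663). TGFB2 differed by -0.07 (-0.19 to 0.05), BMP8B by 0.05 (-0.05 to 0.15) and GDF11 by -0.11 (-0.30 to 0.08), none of them past the test. A dimmer GDF11 probe set passed as lower (-0.20). TGFB3 and BMP7 were near background, at 4.63 and 4.54 in the arrays labelled shControl and 4.65 and 4.51 in those labelled shTIGD1.

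Among secreted antagonists, follistatin and gremlin rose, while the follistatin-like gene FSTL3 fell. FST encodes follistatin, which binds activins and blocks them, and it had the lowest adjusted p of the 49 genes. Its signal was 8.13, 8.13 and 8.21 in the arrays labelled shControl and 8.67, 8.73 and 8.76 in those labelled shTIGD1. That is a rise of 0.56, or 1.48-fold (SE 0.04, limma adjusted p = 0.000731). All 3 FST probe sets rose, by 0.56, 0.68 and 0.71. FST was the 1 member that passed when the test asked for a change beyond 1.2-fold (limma treat, adjusted p = 0.0179).

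FSTL3, which also binds activins, read 10.41, 10.40 and 10.42 against 10.07, 10.02 and 9.99. The controls lay within a very narrow range, and the arrays labelled shTIGD1 were all lower, by 0.38 on average, or 1.30-fold (SE 0.04, limma adjusted p = 0.00132). A second FSTL3 probe set also fell, by 0.24, and with the poly-A controls the brightest stood at -0.06 and did not pass. FST and FSTL3 therefore moved in opposite directions by the test as deposited. GREM1, encoding the BMP antagonist gremlin 1, read 6.46, 6.37 and 6.43 in the arrays labelled shControl and 6.83, 6.82 and 6.77 in those labelled shTIGD1 (0.39, SE 0.04, limma adjusted p = 0.00162). Of its 4 probe sets 3 rose, and the largest rise was 0.96, from 5.61 to 6.57. NOG, encoding noggin, differed by 0.09 (95% interval 0.01 to 0.17) and HTRA1, a secreted protease, by -0.02 (-0.09 to 0.06), and neither passed.

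The latent TGF-beta binding proteins were lower or did not pass. LTBP3 read 9.32, 9.37 and 9.36 on the arrays labelled shControl and 9.001, 8.94 and 8.94 on those labelled shTIGD1, the largest fall among the 49 genes (-0.39, or 1.31-fold lower, SE 0.04, limma adjusted p = 0.00131). The groups were far apart relative to their spread, and all 4 LTBP3 probe sets fell, by 0.38 to 0.48. With the poly-A controls the brightest stood at -0.07 and did not pass. LTBP2, a relative that is itself mainly a matrix protein, read 8.07, 8.16 and 8.003 against 7.92, 7.65 and 7.82. The fall of 0.28 passed narrowly (SE 0.08, limma adjusted p = 0.0446), and it held in only 1 of 6 fits without an array (without shTIGD1 replicate 1; adjusted p up to 0.11 in the others). LTBP4 did not pass with its brightest probe set (-0.20, adjusted p = 0.0841), although 2 of its 6 probe sets fell. LTBP1, which anchors latent TGF-beta in the matrix, differed by -0.08 (95% interval -0.22 to 0.06) and did not pass.

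**Figure D2:**
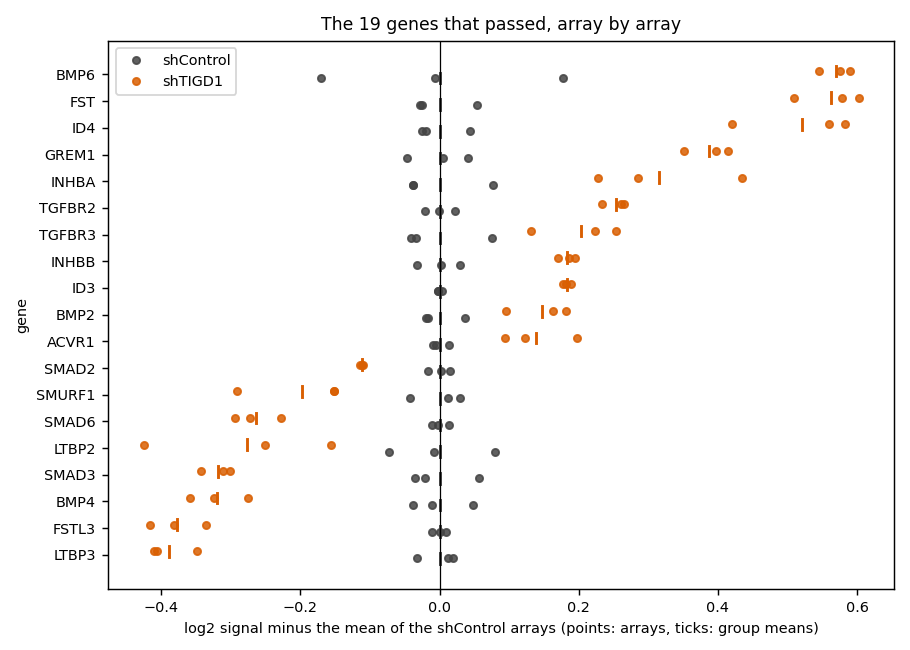
Log2 signal of each array minus the mean of the shControl arrays (x axis) for the 19 genes that passed (y axis), with points for the 3 arrays of each group and ticks for the group means. The shControl points of BMP6 are the most widely spread, and for each gene the shTIGD1 points lie to one side of all shControl points.

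Of the 10 receptors and co-receptors tested, TGFBR2, TGFBR3 and ACVR1 rose and none (0) passed as lower. The share called was 30%, beside 23.8% of all genes (9.81% higher and 14% lower). None (0) of these 10 genes was near background, while 5319 of all 18244 genes were, and calls are more frequent among brighter genes. TGFBR2, the type II receptor that binds TGF-beta, read 11.40, 11.44 and 11.42 in the arrays labelled shControl and 11.68, 11.68 and 11.65 in those labelled shTIGD1. The spread was narrow in both groups, and the rise was 0.25, or 1.19-fold (SE 0.03, limma adjusted p = 0.00347). The other TGFBR2 probe set rose by 0.49. TGFBR3, betaglycan, which presents TGF-beta2 to the signalling receptors, read 8.78, 8.89 and 8.78 against 8.95, 9.04 and 9.07 (0.20, SE 0.05, limma adjusted p = 0.0326). Its other probe sets were at 0.00 and 0.03 and did not pass, and the call ended without shControl replicate 1 or 3 or shTIGD1 replicate 2 or 3 (adjusted p up to 0.0995).

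ACVR1, a type I receptor of BMPs and activins also called ALK2, read 8.39, 8.39 and 8.41 in the arrays labelled shControl and 8.49, 8.59 and 8.52 in those labelled shTIGD1 (0.14, SE 0.04, limma adjusted p = 0.0462). This call was at the edge. It ended in each of the 6 fits without an array (adjusted p up to 0.115), none (0) of the 4 ACVR1 probe sets passed when probe sets were tested on their own, and the second brightest stood at -0.07. Among the receptors that did not pass, the groups did not overlap for TGFBR1 (0.09), ACVR1B (0.14), BMPR1B (0.09) and ACVR2B (-0.15). ACVR1B, the main type I receptor of activins, had 2 of 5 probe sets that rose, the larger by 0.51, and ACVR2B, a type II receptor of activins, had 1 of 2 that fell, by 0.29. TGFBR1 had 1 of 3 that rose, by 0.38, at signals near background (3.72 and 4.10). The type II receptors ACVR2A (-0.19, 95% interval -0.36 to -0.03) and BMPR2 (0.05, -0.04 to 0.15) and the co-receptor ENG (-0.11, -0.25 to 0.03), known from endothelium, did not pass.

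Of the SMADs that carry the signal, SMAD3 fell with every probe set, and the others showed no fall that held across probe sets. SMAD3 read 11.63, 11.54 and 11.55 on the arrays labelled shControl and 11.27, 11.23 and 11.26 on those labelled shTIGD1. The arrays of each group lay close together and the groups apart, with a difference of -0.32, or 1.25-fold lower (SE 0.04, limma adjusted p = 0.003). All 5 SMAD3 probe sets fell, by 0.32 to 0.49, while with the poly-A controls the brightest stood at 0.00. SMAD2, its close relative, read 11.20, 11.22 and 11.18 against 11.09 on each array labelled shTIGD1 (-0.11, SE 0.03, limma adjusted p = 0.043). That call ended in each of the 6 fits without an array (adjusted p up to 0.118) and averaging all SMAD2 probe sets turned the value to 0.05. Of 7 SMAD2 probe sets tested on their own, 1 rose (0.18) and none (0) fell. No direction is therefore given for SMAD2.

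SMAD4, the partner shared by both branches, did not pass with its brightest probe set (0.04, 95% interval -0.06 to 0.15), yet 3 of its 7 probe sets rose and none (0) fell. The largest of these rises was 0.52, from 6.39 to 6.91. SMAD1 differed by 0.15 (0.04 to 0.26) and SMAD5 by 0.05 (-0.06 to 0.17), and neither of these BMP-branch SMADs passed. Of the 5 SMAD5 probe sets, 1 dimmer one passed as higher on its own (0.17). SMAD9 was near background, at 4.01 and 4.22.

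Among the inhibitors inside the cell, SMAD6 and SMURF1 fell and the other 7 did not pass. That is 22.2% called, beside 23.8% of all genes, though none (0) of these 9 genes was near background. SMAD6, an inhibitory SMAD that acts mainly on the BMP branch, read 9.96, 9.94 and 9.95 on the arrays labelled shControl and 9.72, 9.68 and 9.66 on those labelled shTIGD1 (-0.26, SE 0.03, limma adjusted p = 0.00357). The controls were nearly alike and all arrays of the other group lower, and a second probe set fell by 0.32. Levelling on the hybridization controls left -0.09, which did not pass. SMAD6 and SMAD3 are neighbours in the RefSeq gene order (GRCh38.p14), with 0 coding genes between them, and both fell as deposited. SMURF1, a ubiquitin ligase for SMADs and receptors, read 8.44, 8.46 and 8.39 against 8.28, 8.14 and 8.28 (-0.20, SE 0.05, limma adjusted p = 0.0332). Its call ended in each of the 6 fits without an array (adjusted p up to 0.0913), and its other probe set did not pass.

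SMAD7, the inhibitory SMAD induced by TGF-beta itself, read 8.52, 8.67 and 8.41 against 8.52, 8.41 and 8.59, with overlapping groups (-0.03, 95% interval -0.22 to 0.16). SMURF2, a relative of SMURF1, differed by -0.11 (-0.26 to 0.05). The nuclear repressors SKIL (-0.12), TGIF1 (-0.03) and SKI (0.09) did not pass, and 2 of 5 SKI probe sets fell while none (0) rose. PMEPA1, a TGF-beta target that limits SMAD activation, differed by 0.08 (-0.01 to 0.17), and BAMBI, a receptor decoy, by 0.03 (-0.06 to 0.12).

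The ID genes, which encode inhibitors of DNA-binding helix-loop-helix factors and are classical targets of BMP signals, separated into ID3 and ID4, which rose, and ID1 and ID2, which did not pass. ID4 read 6.72, 6.78 and 6.71 on the arrays labelled shControl and 7.16, 7.32 and 7.30 on those labelled shTIGD1. That rise of 0.52, or 1.43-fold (SE 0.05, limma adjusted p = 0.00169), lay well outside the spread of both groups, and 3 of 4 ID4 probe sets rose. ID3 read 12.56 on each array labelled shControl and 12.75, 12.74 and 12.74 on the others, a small but very even rise of 0.18 (SE 0.03, limma adjusted p = 0.00787) seen with all 3 of its probe sets. ID1 read 12.98, 12.98 and 12.96 against 12.99, 12.94 and 13.01, and its 95% interval ran from -0.08 to 0.09. ID2 read 9.89, 9.92 and 9.92 against 9.89, 9.97 and 9.91, with an interval from -0.07 to 0.10. The 3 ID1 probe sets lay between -0.01 and 0.02. Whether the rise of ID3 and ID4 differs from the values of ID1 and ID2 was not tested.

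The promoters of these 4 genes and of SMAD6 are shown because SMAD proteins bind short DNA motifs and because the genes differed in how they moved. Each run is the 250 bases before the transcription start in RefSeq (GRCh38.p14), 5′ to 3′ on the gene's strand, in lower case, with motif matches in capitals. Promoters were found there for 46 of the 50 genes. The motifs searched on both strands were CAGAC, the palindrome GTCTAGAC, the palindrome GGCGCC and a composite of GGCGCC followed after 5 bases by GTCT, which overlaps the third. The windows lie at chr20:31605039-31605288 (ID1, plus strand), chr2:8681806-8682055 (ID2, plus), chr1:23559502-23559751 (ID3, minus), chr6:19837120-19837369 (ID4, plus) and chr15:66701986-66702235 (SMAD6, plus).
ID1: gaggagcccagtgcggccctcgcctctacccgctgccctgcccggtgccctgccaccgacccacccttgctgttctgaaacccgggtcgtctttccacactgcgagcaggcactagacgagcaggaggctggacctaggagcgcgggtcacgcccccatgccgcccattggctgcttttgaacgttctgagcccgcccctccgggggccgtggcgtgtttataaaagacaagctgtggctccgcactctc
ID2: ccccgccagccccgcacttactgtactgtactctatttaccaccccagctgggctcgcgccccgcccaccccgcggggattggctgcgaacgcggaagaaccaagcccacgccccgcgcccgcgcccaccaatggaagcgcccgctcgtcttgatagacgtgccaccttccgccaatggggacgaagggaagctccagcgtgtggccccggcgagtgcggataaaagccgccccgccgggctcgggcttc
ID3: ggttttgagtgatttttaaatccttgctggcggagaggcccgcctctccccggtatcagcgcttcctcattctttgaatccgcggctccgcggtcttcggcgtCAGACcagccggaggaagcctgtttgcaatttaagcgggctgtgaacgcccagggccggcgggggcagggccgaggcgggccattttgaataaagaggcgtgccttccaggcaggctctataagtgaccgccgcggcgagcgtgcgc
ID4: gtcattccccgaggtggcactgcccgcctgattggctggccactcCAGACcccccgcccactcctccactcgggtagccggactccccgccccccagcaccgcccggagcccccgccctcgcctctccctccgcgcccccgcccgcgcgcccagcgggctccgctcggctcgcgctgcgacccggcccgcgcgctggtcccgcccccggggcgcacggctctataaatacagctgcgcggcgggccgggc
SMAD6: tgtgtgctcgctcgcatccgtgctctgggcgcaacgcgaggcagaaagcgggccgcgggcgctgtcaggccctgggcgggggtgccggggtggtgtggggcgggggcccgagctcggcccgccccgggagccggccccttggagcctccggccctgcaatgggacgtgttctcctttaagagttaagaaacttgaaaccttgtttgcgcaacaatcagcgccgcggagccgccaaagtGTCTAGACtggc

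The motif CAGAC was found once in the windows of ID3 and ID4, where it starts 147 and 205 bases before the transcription start, and not in those of ID1 and ID2. It is a common motif, present in 38% of 35116 promoter windows of this length and in 40.2% of the 87 windows of the pathway genes. The SMAD6 window holds GTCTAGAC, which starts 12 bases before the transcription start. That palindrome was present in 0.182% of all windows and in 1 of the 87. GGCGCC occurred in 16.4% of all windows and in 23% of the 87, but in none (0) of the 5 shown. The composite occurred in 0.0769% of all windows and in 0 of the 87. A match is a run of letters and not a measured binding site, and several windows can belong to 1 gene. Sequence outside the windows was not searched, so a window without a match does not show that its gene lacks such motifs. Whether the matches bear on how the genes moved was not tested.

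Most genes that passed had further probe sets that passed in the same direction, and SMAD2 alone had one that passed in the other. The 49 genes had 147 probe sets with 1 symbol, and 52 of them passed when each was tested on its own over 45278 probe sets, where 22.5% passed in all, 11.7% as higher and 10.8% as lower. Of the 19 genes that passed, 17 had several probe sets. For 12 of these at least 1 dimmer probe set passed in the same direction, and for 1, SMAD2, a dimmer one passed in the opposite direction. Of the 38 dimmer probe sets of these genes, 21 passed in the direction of the brightest. Of the 60 dimmer probe sets of genes that did not pass, 7 rose and 6 fell. Probe sets of a gene share its RNA and are not replicates. How often the probe sets of other called genes agree is not given here.

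**Figure D3:**
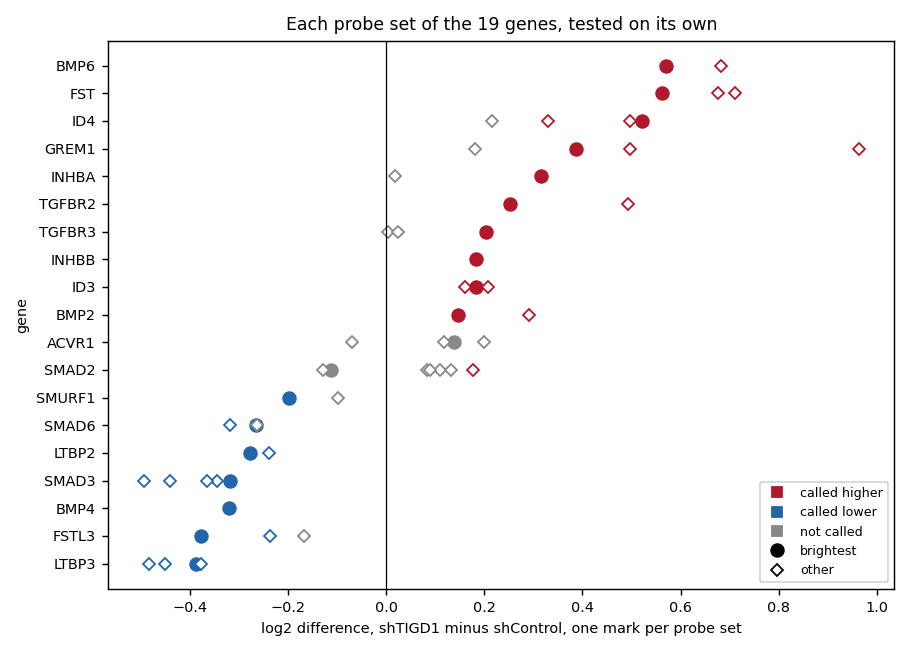
Log2 difference (x axis, shTIGD1 minus shControl) of every probe set of the 19 genes (y axis), with filled circles for the brightest and open diamonds for the others, coloured by the test of each probe set on its own. All marks of SMAD3 and LTBP3 are blue and all of FST and ID3 are red, while those of SMAD2 lie on both sides of 0.

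Some calls depended on single arrays. Of the 19 genes, 12 passed in all 6 fits that left out an array. The 7 rises among them were INHBB, BMP6, TGFBR2, FST, GREM1, ID3 and ID4, and the 5 falls were BMP4, SMAD3, SMAD6, LTBP3 and FSTL3, none (0) of which passed as lower with the poly-A controls. The calls of INHBA, BMP2, TGFBR3, ACVR1, SMAD2, SMURF1 and LTBP2 ended in at least 1 of these fits. The share of all called genes that held in every such fit is not given here, so 12 of 19 has no background.

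Other genes of the pathway were taken from 7 lists, of which 123 genes were tested. Of these, 10 rose and 20 fell, or 24.4% in all, close to the 23.8% of all genes. Most of the remaining ligands were near background, with 14 of 21 under 5, and GDF15, a stress-induced member of the superfamily, was the 1 that passed. It fell from 12.51 ± 0.01 to 12.24 ± 0.03 (SD, n = 3 each), by 0.27 (limma adjusted p = 0.00338), with all 5 of its probe sets. Among 8 other receptors and co-receptors 25% passed. The BMP co-receptors RGMA and RGMB fell by 0.26 each and none (0) rose. The RGMB call held in only 1 of 6 fits without an array (without shControl replicate 3). None (0) of these 3 falls passed under either control scaling, and with the poly-A controls GDF15, RGMA and RGMB stood at 0.05, 0.06 and 0.06. Among 14 other antagonists 21.4% passed. The BMP-binding genes CRIM1 (0.23) and BMPER (0.15) rose, with all of their probe sets. CHRDL1 also passed as higher, at signals under 5 and with a dimmer probe set at -0.18.

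Genes that release or activate the ligands held 5 falls and 1 rise among 16. The share called was 37.5%, beside 23.8% of all genes (9.81% higher and 14% lower). Near background were 3 of the 16, and 5319 of all 18244 genes. MMP2, a gelatinase, fell from 7.45 ± 0.09 to 6.85 ± 0.02, by 0.60 (limma adjusted p = 0.001), with 3 of 4 probe sets lower and 1 at 0.19 that did not pass. FBN2, a fibrillin of the matrix that stores latent ligands, fell by 0.52, with 2 of 5 probe sets lower and the highest at 0.12. ITGB5, an integrin subunit that binds the latency peptide, fell by 0.41 with its 1 probe set. BMP1, a protease that processes procollagens and BMP antagonists, fell by 0.32, and THBS1, thrombospondin 1, by 0.16. For BMP1 4 of 5 probe sets were lower, and for THBS1 2 of 5. MMP2 and FBN2 passed as lower under both control scalings, ITGB5 and BMP1 only with the hybridization controls, and THBS1 under neither. PCSK6, a proprotein convertase, passed as higher (0.25) with 1 of its 7 probe sets. Among 23 other regulators inside the cell 26.1% passed. LEMD3 and WWP1 rose, by 0.17 and 0.18, and TRIM33, TOB1, TAB1 and USP15 passed as lower. TRIM33, a ubiquitin ligase that acts on SMAD4, had the largest fall of these, 0.27, which became -0.09 with the hybridization controls and 0.06 with the poly-A controls and passed under neither. For USP15, whose brightest probe set was at -0.24, 3 of 7 probe sets rose, and no direction is given.

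Target genes of TGF-beta moved both ways, with 3 rises and 6 falls among 26 tested. The share called was 34.6%, beside 23.8% of all genes. Near background were 5 of the 26, and 5319 of all 18244 genes. CDKN1A, a cell cycle inhibitor also controlled by p53, fell by 0.63 (limma adjusted p = 0.000359), COL3A1, a fibrillar collagen, by 0.56, and TAGLN, a smooth muscle protein, by 0.27. COL3A1 fell with 3 of 5 probe sets and TAGLN with 4 of 6. JUNB and SPHK1 fell by 0.23 and 0.22. The cytokine gene IL11 rose by 0.33, from 7.01 ± 0.14 to 7.34 ± 0.05 (SD, n = 3 each), with 1 of 3 probe sets higher. The 3 genes that complete the count were named after their values were seen. The basement membrane collagen COL4A1 and the matrix gene TGFBI rose by 0.20 and 0.13 (limma adjusted p = 0.00777 and 0.0481), and SNAI1, a repressor of epithelial genes, fell by 0.14 (adjusted p = 0.0373). COL4A1 rose with 2 of 3 probe sets, with the lowest at -0.13, TGFBI with 3 of 4, and SNAI1 has 1 probe set. Whether these 3 calls hold without an array or with the control scalings is not given here. Of 15 BMP target genes tested, GATA2 passed as higher (0.40), and MSX2 and GATA3 fell by 0.21 and 0.18. That is 20% called, beside 23.8% of all genes. GATA2 had 2 probe sets that rose and 1 that fell. CDKN1A and COL3A1 passed as lower under both control scalings, and TAGLN, JUNB, SPHK1, MSX2 and GATA3 under neither. Over the 7 lists, 13 of the 27 called genes that the naming rule selected kept their call in all 6 fits without an array, a count without an all-gene share beside it. The other 14 were RGMB, CHRDL1, BMPER, PCSK6, THBS1, USP15, WWP1, LEMD3, TAB1, TOB1, IL11, SPHK1, GATA2 and GATA3, whose highest adjusted p in these fits lay between 0.0543 and 0.133.

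**Figure D4:**
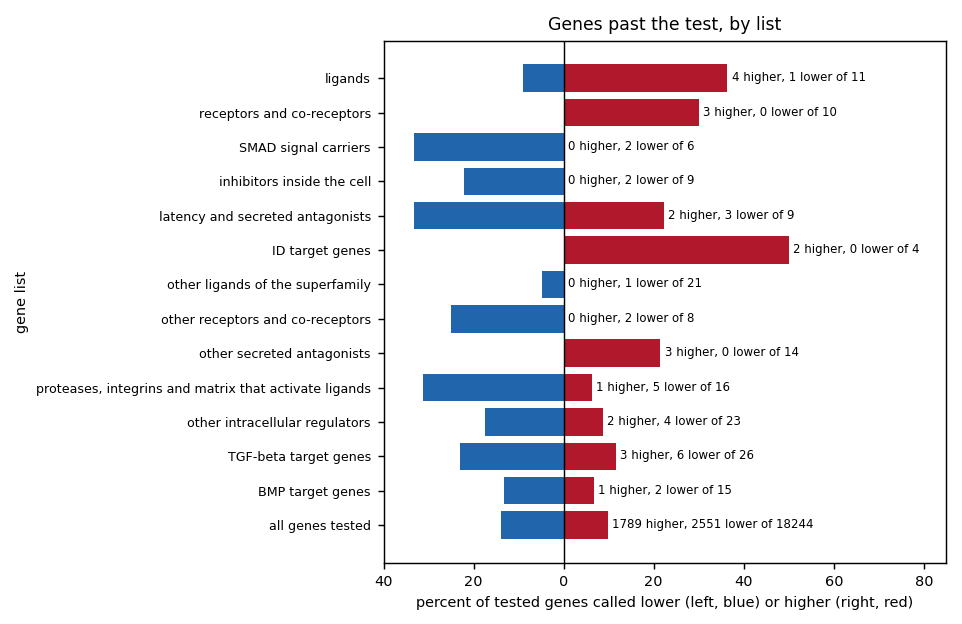
Percent of the tested genes of each list (y axis) that passed as higher (right, red) or lower (left, blue) in the arrays labelled shTIGD1 (x axis), with counts beside the bars. The bottom bars give all 18244 genes, of which 9.81% passed as higher and 14% as lower; several lists hold fewer than 10 genes, so that 1 gene moves a bar by over 10 points.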

How the data were processed

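RNA from A549 cells was measured on 6 1-colour arrays after amplification from the 3′ end, per the labels' protocols. The authors deposited 1 log2 signal for each probe set. GCOS and RMA are the tools named in the submitters' processing notes, and their versions were not given there. That the scale is log2 was inferred from the size of the values. RMA makes the distributions of the arrays alike, so that a shift common to most genes would be removed before deposit.

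Of 49395 probe sets, 102 were controls. The platform annotation gave 1 symbol to 45278, several to 1333 and none to 2682, and the brightest probe set with 1 symbol stood for each of 18244 genes. Groups of 3 arrays, taken from the titles, were compared in R 4.3.3 with limma 3.58.1 (lmFit, eBayes). P-values were two-sided and adjusted by Benjamini-Hochberg across the 18244 genes, with calls at 0.05. The fit was tested on simulated data, where it recovered 42% of 50 genes changed by 1.2-fold and 92% of 50 changed by 1.5-fold. Changes of the size seen in most members could thus be missed. Far fewer genes changed there than passed here, so these shares need not hold for these data. Figures were drawn with matplotlib 3.10.9 in Python 3.11.15.

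The 50 members and the gene lists were chosen with earlier results of these data known. The genes named were the members, TIGD1, marker genes and, per pathway list, up to 6 genes past the test by size of the difference. Outside this rule, 3 further TGF-beta targets that passed were named after their values were seen. Alternatives changed the probe set, scaling, filter, moderation, threshold, array weights, replicate block and arrays left out. Scan dates were not used here.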

Additional observations from a re-analysis of the deposited data

How the results depend on the processing

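The counts of calls depended on settings. With arrays levelled on the hybridization controls 7959 of all genes passed (4340 as deposited), and 40 other pathway genes rose (10 as deposited) while 6 fell (20 as deposited). The poly-A controls gave 12532, 85 and 4. The members gave 29 higher and 4 lower (median 0.20) and 35 and 0 (median 0.34), against 11, 8 and 0.02 as deposited. Testing against a 1.2-fold change left 262 of all genes, 1 member higher and 0 lower, and 0 other pathway genes higher and 3 lower. Moderation with trend and robust settings raised the counts, to 5802 of all genes, 16 members higher and 11 lower. Among members not called as deposited, LTBP4 passed in 5 of the 15 settings other than the control scalings. ACVR1B passed in 4 of them, and TGFB1, SMAD1 and ACVR2B in 3 each. With the second brightest probe sets 13 other pathway genes fell. Leaving out each array gave 2741 to 3386 of all genes, 7 to 10 members higher and 5 to 7 lower, 4 to 6 other pathway genes higher and 12 to 17 lower, and 35 to 46 probe sets of the members (52 with all arrays), with the members' median from 0.0029 to 0.03.

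Replicate numbers gave no sign of a pairing, as the correlations of deviations from the group means were -0.03, -0.13 and -0.09. Such values cannot show that the arrays were prepared unpaired. With the number as a replicate block 2391 of all genes passed, 5 members rose and 5 fell, 3 other pathway genes rose and 11 fell, and 34 of the members' probe sets passed. The calls of INHBB and ID3, which held without any 1 array, ended under the block. Of the 19 members called, 10 passed in every setting other than the control scalings and the 1.2-fold threshold.

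Some directions turned. Values are given here only for genes that passed as deposited or under the setting, so sign changes of genes that passed in neither are left out. With the second brightest probe set the values were ACVR1 -0.069, CHRDL1 -0.18, SMAD2 0.084, TRIM33 0.057 and USP15 0.12. With all probe sets averaged they were SKI -0.12, SMAD2 0.050 and USP15 0.20. With the hybridization controls they were BMP7 0.15, GATA3 0.0013, HTRA1 0.16, SMAD2 0.065, TAB1 0.024, TGIF1 0.14, THBS1 0.015 and TOB1 0.040. With the poly-A controls they were BMP4 0.0015, BMP7 0.29, ENG 0.21, GATA3 0.14, GDF15 0.050, HTRA1 0.30, JUNB 0.089, LTBP1 0.25, LTBP2 0.044, MSX2 0.12, RGMA 0.057, RGMB 0.059, SMAD2 0.21, SMAD3 0.0026, SMAD6 0.057, SMAD7 0.29, SMURF1 0.12, SPHK1 0.10, TAB1 0.17, TAGLN 0.049, TGFB2 0.25, TGIF1 0.29, THBS1 0.16, TIGD1 0.27, TOB1 0.18, TRIM33 0.056 and USP15 0.086. The cause was not tested. The number of arrays, 3 per group, limits the precision, and signals under 5 lie near background.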
